A study of Mus musculus with 48 samples.

Results

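The change in gene expression of KAT6A/KAT6B double knockout cells between day 6 and day 15 of neuronal differentiation was measured in 6 of the 48 RNA-seq libraries of the series. The libraries were chosen by their labels alone: 3 double knockout replicates of day 6 and 3 of day 15. All 20118 genes with enough counts in these libraries were tested, and 40 gene lists with 718 genes in all were used to describe them.

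The series crosses 4 genotypes with days 0, 2, 6 and 15 of one differentiation protocol, in 3 replicates from independent differentiation experiments. The genotypes are E14, a mouse embryonic stem cell line that served as the control, and its KAT6A-/-, KAT6B-/- and KAT6A-/-; KAT6B-/- derivatives. How many clones stand for each knockout genotype is not stated in the labels. All libraries compared here share the treatment: embryoid bodies were formed without LIF, 10 µM all-trans retinoic acid was present from day 4, and at day 8 the bodies were plated on poly-D-lysine and laminin in N2/B27 neuronal medium. Day 6 double knockout samples are therefore embryoid bodies in their first days of retinoic acid, and day 15 samples are plated cells from the same protocol. The step is compared with the same step in E14, KAT6A knockout and KAT6B knockout cells, whose day 6 and day 15 groups hold 3 libraries each.

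KAT6A and KAT6B are related lysine acetyltransferases of the MYST family that act in complexes with BRPF scaffold proteins, ING proteins and MEAF6 and acetylate histone H3. In embryoid bodies, retinoic acid binds nuclear receptors that switch on direct targets such as Rarb, Cyp26a1 and the Hox genes of the 3′ cluster ends, and it directs cells to caudal neural progenitors. Progenitors that leave the cell cycle pass through a wave of proneural factors and then express cytoskeletal, synaptic and channel genes of neurons, while cells of other germ layers can persist beside them.

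The 6 libraries held 36.1 M, 39.4 M and 57.56 M counted reads at day 6 and 47.55 M, 72.28 M and 54.33 M at day 15, within the range of 22.5 M to 72.28 M over all 48 libraries. Levels are given as CPM, counts divided by the library total and scaled with TMM factors over the libraries of the comparison, in the order of replicates 1, 2 and 3. Kat6a (ENSMUSG00000031540, GRCm39 chromosome 8, 23349551 to 23433275 on the forward strand) had 120.5, 116 and 129 CPM at day 6 and 99.3, 134 and 132 CPM at day 15 (log2 fold change 0.00 ± 0.14, adjusted p = 0.989). Kat6b (ENSMUSG00000021767, chromosome 14, 21531502 to 21722546 on the forward strand) had 88.1, 95.5 and 112 CPM at day 6 and 84, 89 and 114 CPM at day 15 (log2 fold change -0.04 ± 0.16, adjusted p = 0.844). Both genes had reads in all 6 libraries, and counts over a whole gene cannot show a small edit, so they do not check the genotype labels. The share of counts from mitochondrial genes was 0.69% in day 6 replicate 1 against 1.49% and 1.57% in the other day 6 libraries.

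The day 15 library of replicate 3 stood apart from the other day 15 libraries. On the second principal component, which held 9.3% of the variance against 80% for the first, it lay at -82.3 while the other 5 libraries lay between -10.1 and 39.9. Its log2 CPM values correlated at 0.9646 and 0.9605 with the other day 15 libraries, which correlated at 0.982 with each other. Replicate 3 was the lowest day 15 library for 35.9% of all genes tested, but for 23 of 23 pan-neuronal genes, 21 of 21 presynaptic genes and 10 of 12 smooth muscle genes. The median log2 ratio of replicate 3 to the mean of the others was -2.46 for the pan-neuronal and -2.35 for the presynaptic genes. It was the highest day 15 library for 19 of 19 mitosis genes (median log2 ratio 0.79), 20 of 23 DNA replication genes (0.61) and 15 of 20 pluripotency genes (0.88), against 38.5% of all genes. For mesenchyme genes the median ratio was 0.08, with 3 of 20 lowest and 9 of 20 highest in replicate 3. List counts below are therefore also given without this library where they differ. In these bulk samples, fewer cells of a type and less RNA per cell cannot be told apart.

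**Figure D1:**
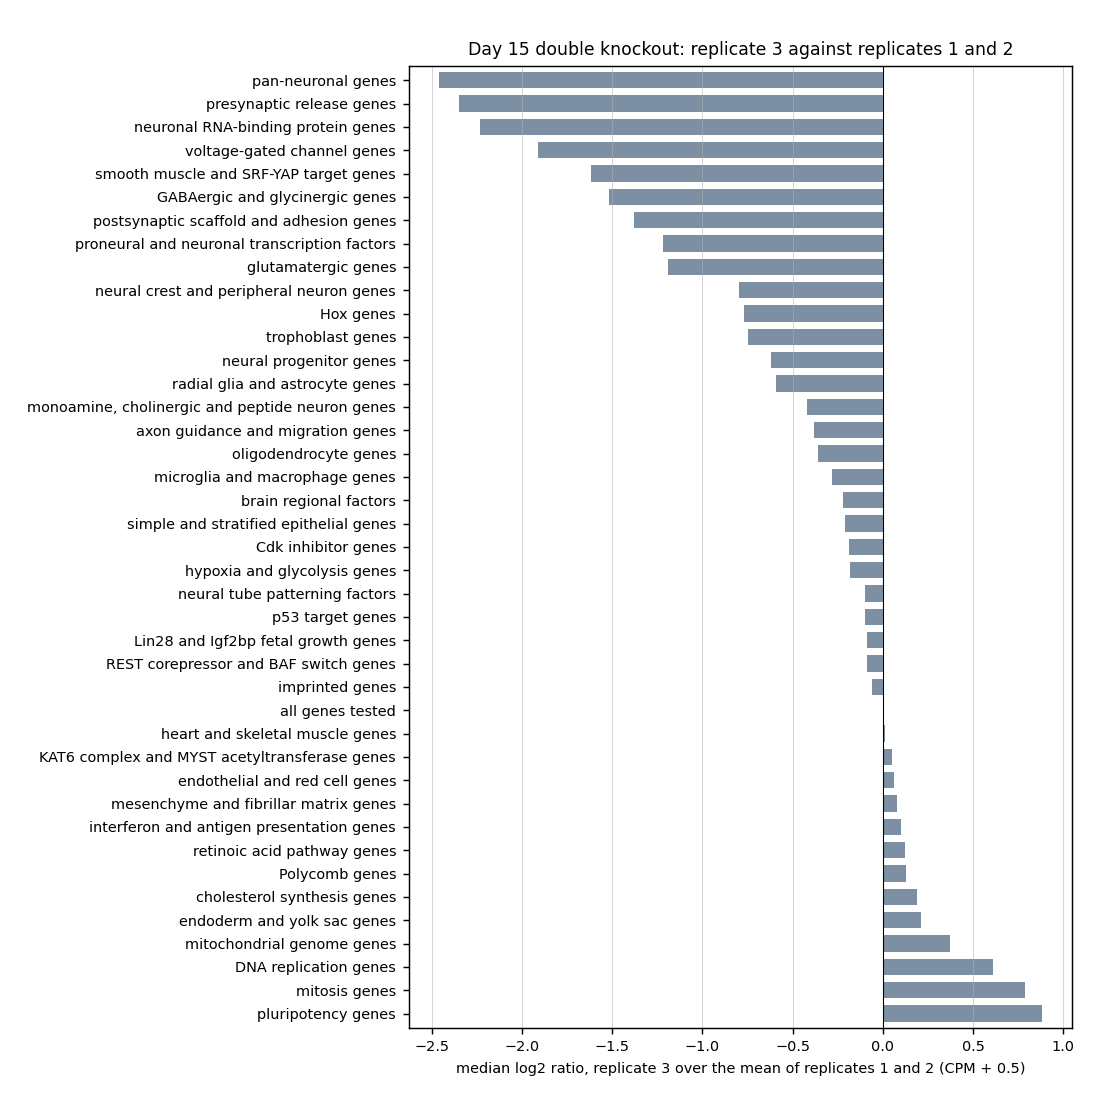
Median log2 ratio of the day 15 double knockout library of replicate 3 to the mean of the other day 15 libraries, for each gene list. The neuronal and smooth muscle lists lie below 0, the mitosis, replication and pluripotency lists above 0, and the mesenchyme list is near 0.

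Between day 6 and day 15 of the double knockout, 10365 of 20118 genes changed (51.5%), 5212 upward (25.9%) and 5153 downward (25.6%), by edgeR's quasi-likelihood test at a Benjamini-Hochberg adjusted p under 0.05. The change was 2-fold or more for 3459 genes that rose (17.2%) and 3591 that fell (17.8%). The median log2 fold change of day 15 over day 6 was -0.04 over all genes. For 61.8% of genes every day 15 library lay on the same side of every day 6 library. Since so many genes changed, each list below is read against these shares.

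The 12 largest rises and the 12 largest falls were taken where the mean over the 6 libraries reached 5 CPM. Ogn, which encodes the matrix proteoglycan osteoglycin, had no read at day 6 and 6.41, 6.07 and 69.6 CPM at day 15, at least 1295-fold higher. Its level differed widely between the day 15 libraries, and the fitted log2 fold change of 13.44 became 11.32 without replicate 3. Dpt, the matrix protein dermatopontin, rose from 0, 0 and 0.0154 to 5.09, 52.1 and 7.63 CPM (log2 fold change 11.22 ± 1.52, adjusted p = 0.000799). Its log2 fold change was 9.47 without day 15 replicate 2 and 13.02 without day 6 replicate 3. Lox, whose product crosslinks collagen, rose from 0.554, 1.22 and 0.556 to 292, 309.8 and 333 CPM (log2 fold change 8.66 ± 0.34, adjusted p = 1.17e-05), with all day 15 libraries far above all day 6 libraries. The other large rises were Agtr2, Scg2, Gng4, Serpina3n, Pi15, Syt4, Gkn2 and Btn1a1, with log2 fold changes from 7.87 to 9.84. Of these, Agtr2 had 7.17 and Pi15 5.95 without day 15 replicate 3, and Scg2 had 13.46, Gng4 12.53 and Pi15 12.52 without day 6 replicate 3.

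Among the falls, Hoxb1, a direct retinoic acid target of the hindbrain, went from 98.7, 86.1 and 92.4 CPM to 0, 0.0469 and 0.21 CPM (log2 fold change -10.05 ± 0.54, adjusted p = 2.44e-05). Its log2 fold change was -11.57 when day 15 replicate 3 was left out. Tie1, an endothelial receptor, fell from 31.7, 24.7 and 54 to 0, 0.0782 and 0.0631 CPM (log2 fold change -9.42 ± 0.61, adjusted p = 3.82e-05). Stra8, named for its induction by retinoic acid, fell from 512, 481 and 382 to 1.21, 0.282 and 1.47 CPM (log2 fold change -8.9 ± 0.56, adjusted p = 3.63e-05). The other large falls were Hapln1, Cldn5, Cdx1, Gabrp, Dbx1, Aplnr, Serpinf2, Csn3 and Cyp26b1, with log2 fold changes from -8.71 to -6.92. Single libraries moved 6 of these by over 1.5-fold without changing a call: Gabrp had -12.75 without day 15 replicate 3 and -6.83 without day 15 replicate 2, Cdx1 -10.19 without day 15 replicate 1, and Csn3 -7.7 and -6.29 when replicates 1 and 2 of day 15 were left out in turn. Cldn5 had -9.58, Dbx1 -8.43 and Aplnr -8.25 when day 15 replicate 2 was left out, and Aplnr had -6.53 in the absence of day 6 replicate 3.

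**Figure D2:**
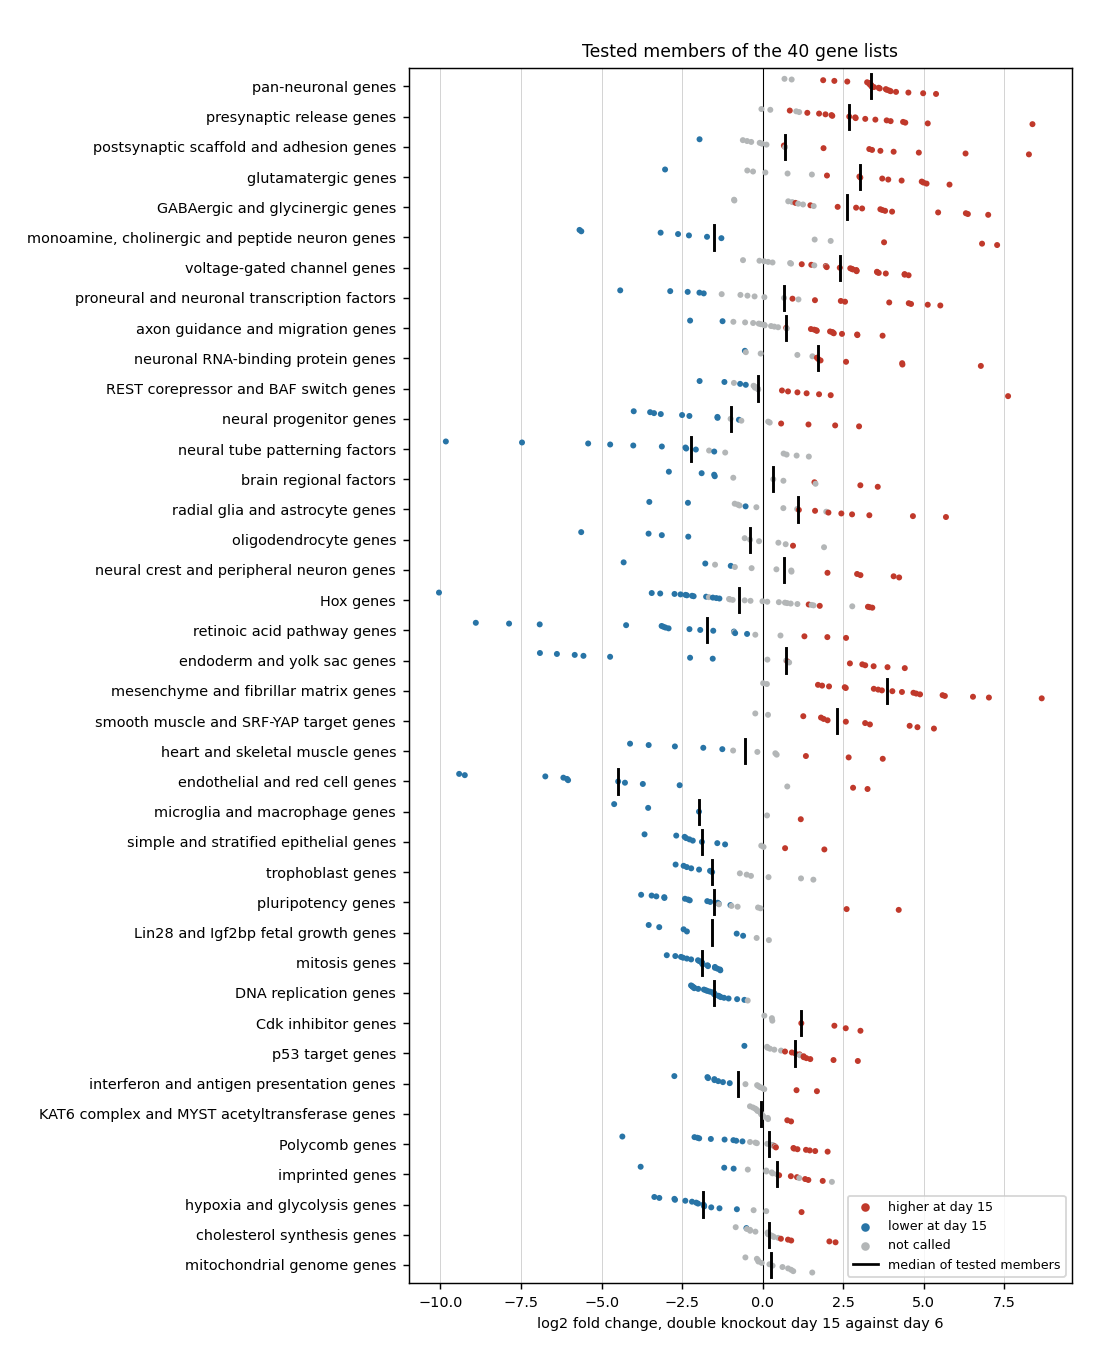
Log2 fold change from day 6 to day 15 of the double knockout for every tested member of each gene list, with the list medians. Mesenchyme and neuronal lists lie mostly above 0, and the retinoic acid, patterning, endothelial, mitosis, replication and glycolysis lists mostly below 0.

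The retinoic acid pathway list moved down after plating. Of 20 genes, 14 fell, 3 rose and 3 did not pass the test, with a median log2 fold change of -1.74. The falling genes included receptors, binding proteins and the enzymes that clear retinoic acid. Rarb, the receptor that retinoic acid induces, went from 80.4, 87.9 and 100.5 CPM at day 6 to 12.4, 9.84 and 11 CPM at day 15 (log2 fold change -3.01 ± 0.15, adjusted p = 2.11e-05). Cyp26a1 and Cyp26b1 encode the oxidases that degrade retinoic acid. Cyp26a1 went from 487, 456 and 358 CPM at day 6 to 61.8, 33.9 and 52.3 CPM at day 15 (log2 fold change -3.14 ± 0.25, adjusted p = 8.38e-05). Cyp26b1 went from 479.9, 404 and 588 CPM at day 6 to 5.3, 4.12 and 2.75 CPM at day 15 (log2 fold change -6.92 ± 0.31, adjusted p = 1.38e-05). For each of these genes the lowest day 6 library was above the highest day 15 library. Crabp2, a carrier of retinoic acid to its receptors, fell by 4.24 on the log2 scale, and Crabp1 (-3.08), Cyp26c1 (-2.92) and Dhrs3 (-2.27) fell as well. The 3 genes that rose encode enzymes of retinoic acid synthesis: Aldh1a3 (2.59), Aldh1a2 (2.01) and Rdh10 (1.3). Aldh1a1, the remaining synthesis enzyme listed, had -0.88 and did not pass the test (adjusted p = 0.0645).

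The promoters of 3 genes that fell are shown because each holds the letters GTTCA, then 6 bases of any kind, then GTTCA again, the core of the direct repeat that retinoic acid receptors are known to bind. The sequences are RefSeq's, 250 bases before the start on GRCm38.p6, read 5′ to 3′ on the gene's strand, with the repeat in capitals.
Rarb, chr14:16575477-16575726, reverse strand: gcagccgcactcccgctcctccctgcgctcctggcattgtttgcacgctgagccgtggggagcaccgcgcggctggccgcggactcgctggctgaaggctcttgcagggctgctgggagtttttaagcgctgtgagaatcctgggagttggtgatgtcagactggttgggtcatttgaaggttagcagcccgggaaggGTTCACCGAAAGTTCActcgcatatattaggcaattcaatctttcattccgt
Cyp26a1, chr19:37697558-37697807, forward strand: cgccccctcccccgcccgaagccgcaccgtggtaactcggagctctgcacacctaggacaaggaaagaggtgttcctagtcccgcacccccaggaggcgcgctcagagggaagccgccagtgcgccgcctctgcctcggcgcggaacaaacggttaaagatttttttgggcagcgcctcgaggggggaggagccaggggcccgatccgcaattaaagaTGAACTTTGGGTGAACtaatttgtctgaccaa
Serpinf2, chr11:75439502-75439751, reverse strand: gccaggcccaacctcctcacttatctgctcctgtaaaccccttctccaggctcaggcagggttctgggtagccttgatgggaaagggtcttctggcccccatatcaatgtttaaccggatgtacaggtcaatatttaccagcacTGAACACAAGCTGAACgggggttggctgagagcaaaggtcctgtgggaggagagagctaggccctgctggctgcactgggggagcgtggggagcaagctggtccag
The repeat begins 52 bases before the start in Rarb, 32 in Cyp26a1 and 106 in Serpinf2, and it lies on the opposite strand in the last 2. Searched on both strands, these letters occur in 25 of 32851 RefSeq promoter windows (0.0761%), from 24 genes. Of these genes 10 were tested in the double knockout: 4 fell, 1 rose and 5 did not pass the test. Over all genes tested, 25.6% fell, 25.9% rose and 51.5% were called either way, so the share called here was near that of all genes. Among the 10, Serpinf2 (-7.01), Cyp26a1 (-3.14), Rarb (-3.01) and Dmd (-1.19) fell, and Prl2c5 (2.53) rose. The letters were chosen with the data known, and a match describes the sequence and is no test of binding.

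The falls among Hox genes lay in the lower paralogue groups. Of 34 tested, 13 fell, 5 rose and 16 did not pass the test (median -0.74). The split into anterior and posterior groups was made after the values were seen and is a description. All 13 genes that fell belong to paralogue groups 1 to 5, where 15 genes were tested and 0 rose. Over all genes, 25.6% fell. All 5 that rose belong to groups 6 to 13, where 19 were tested and 14 did not pass the test. That share of rises is near the 25.9% of all genes that rose. Hoxa3 went from 46, 45 and 48.4 CPM at day 6 to 7.07, 8.37 and 8.37 CPM at day 15 (log2 fold change -2.55 ± 0.14, adjusted p = 2.58e-05). Hoxb2 (-2.35) and Hoxc5 (-3.18) fell as well. Hoxa10 (3.4), Hoxb9 (3.32), Hoxc6 (3.27), Hoxd8 (1.77) and Hoxa9 (1.43), genes of the trunk, rose. Leaving out day 15 replicate 3 gave 9 rises and 13 falls.

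Dorsal and ventral patterning factors of the neural tube fell. Of 16 tested, 10 fell and 0 rose (median -2.22). Wnt3a, a roof plate signal, had 2.12, 2.38 and 2.24 CPM at day 6 and no read at day 15, at least 115-fold lower. Dbx1, a factor of interneuron progenitors, went from 16.4, 17.3 and 4.51 CPM at day 6 to 0.071, 0.125 and 0 CPM at day 15 (log2 fold change -7.47 ± 0.89, adjusted p = 0.000447), and Pax7, of the dorsal tube, from 1.18, 2.02 and 0.386 CPM at day 6 to 0.0237, 0.0469 and 0 CPM at day 15 (log2 fold change -5.42 ± 0.95, adjusted p = 0.00249). Irx3 (-2.07) and Lmx1a (-3.13) fell too. Lmx1a had -3.74 without day 15 replicate 3, and Pax7 had -6.41 and -4.82 when replicate 2 of day 15 or of day 6 was left out. Leaving out day 15 replicate 1 or day 6 replicate 1 gave 1 rise. Brain regional factors were mixed, with 3 rises and 4 falls among 11 (median 0.33). The midbrain factor En1 (3.57) and the hindbrain factor Egr2 (3.03) rose, and Gbx2 (-2.91), Otx2 (-1.89) and Lhx2 (-1.49) fell. Only 2 fell without day 15 replicate 1 or without day 6 replicate 2.

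Neural progenitor genes fell on balance, with 9 falls and 4 rises among 17 (median -0.99). Sox2, a factor of stem cells and neural progenitors, went from 75.8, 75.7 and 64.6 CPM at day 6 to 5.13, 10.7 and 8.24 CPM at day 15 (log2 fold change -3.16 ± 0.27, adjusted p = 0.000111). Pax6, a factor of the neural tube, went from 52.7, 71.9 and 35.9 CPM at day 6 to 5.56, 6.78 and 3.13 CPM at day 15 (log2 fold change -3.37 ± 0.36, adjusted p = 0.000294). Prom1, which encodes the surface protein prominin, went from 38.3, 59.8 and 40.2 CPM at day 6 to 2.74, 2.71 and 3.17 CPM at day 15 (log2 fold change -4.0 ± 0.23, adjusted p = 2.75e-05). In all 3 genes the day 6 libraries lay above the day 15 libraries. Sox3 (-3.49) and Hes5 (-2.5) fell too, while the intermediate filament gene Nes had 119, 95.4 and 101 CPM at day 6 and 114, 195 and 45.2 CPM at day 15 and did not pass the test (log2 fold change 0.17 ± 0.44, adjusted p = 0.768). The rises were Sox21 (2.99), Jag1 (2.25), Zic1 (1.42) and Hes1 (0.57), and 2 genes rose without day 6 replicate 2.

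Radial glia and astrocyte genes went both ways, with 8 rises and 3 falls among 18 (median 1.10). The nuclear factor I genes Nfia (3.31), Nfib (2.77) and Nfix (2.04), which promote gliogenesis, rose. Tnc, a matrix gene, rose by 4.66 on the log2 scale, with 3.92 without day 15 replicate 2 and 5.51 without day 6 replicate 3. Fgfr3 (2.44) rose, and Fabp7, the brain lipid-binding protein of radial glia, had 0.337, 0.181 and 0.664 CPM at day 6 and 10.4, 50.1 and 2.59 CPM at day 15 (log2 fold change 5.69 ± 1.15, adjusted p = 0.00453). The glial factor Sox9 went the other way, with 55.7, 53.4 and 55.7 CPM at day 6 and 12.1, 13.8 and 7.11 CPM at day 15 (log2 fold change -2.32 ± 0.24, adjusted p = 0.000268). The water channel Aqp4 had at most 0.494 CPM and fell (-3.52), and the astrocyte filament Gfap had 0.94, 0.567 and 0.679 CPM at day 6 and 1.35, 6.73 and 0.463 CPM at day 15 and did not pass the test (adjusted p = 0.0969). Of 11 oligodendrocyte genes 4 fell and 1 rose (median -0.39). Mobp (-5.63), Cldn11 (-3.54) and Mag (-3.13) fell and Cnp (0.94) rose, and Olig2 was at or under 1.47 CPM in every library. Mag had -8.23 and Cldn11 -4.25 when day 15 replicate 2 was left out, and 2 genes rose when day 15 replicate 1 was.

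Neuronal genes rose strongly in 2 of the 3 day 15 libraries and less in the third. Of 23 pan-neuronal genes 21 rose and 0 fell (median 3.38), and without day 15 replicate 3 all 23 rose (median 3.87). Mapt, which encodes the axonal microtubule protein tau, went from 7.73, 4.74 and 4.92 CPM at day 6 to 321, 355 and 46.9 CPM at day 15 (log2 fold change 5.38 ± 0.75, adjusted p = 0.000922). Stmn2, a growth cone protein, went from 5.11, 6.28 and 5.08 CPM at day 6 to 188, 165 and 25.2 CPM at day 15 (log2 fold change 4.52 ± 0.7, adjusted p = 0.00138). Day 15 replicate 3 was the lowest day 15 library for both, and still lay above all day 6 libraries. Nefl (4.14), Stmn3 (4.98), Ncam1 (3.97) and Tubb3 (3.93) rose as well. The axonal filament gene Nefh (0.9) and the RNA-binding gene Elavl2 (0.68) did not pass the test. The summed level of the list was 423.2 to 428.5 CPM at day 6 and 970.1 to 4680.0 CPM at day 15, a wider range at day 15 than at day 6.

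**Figure D3:**
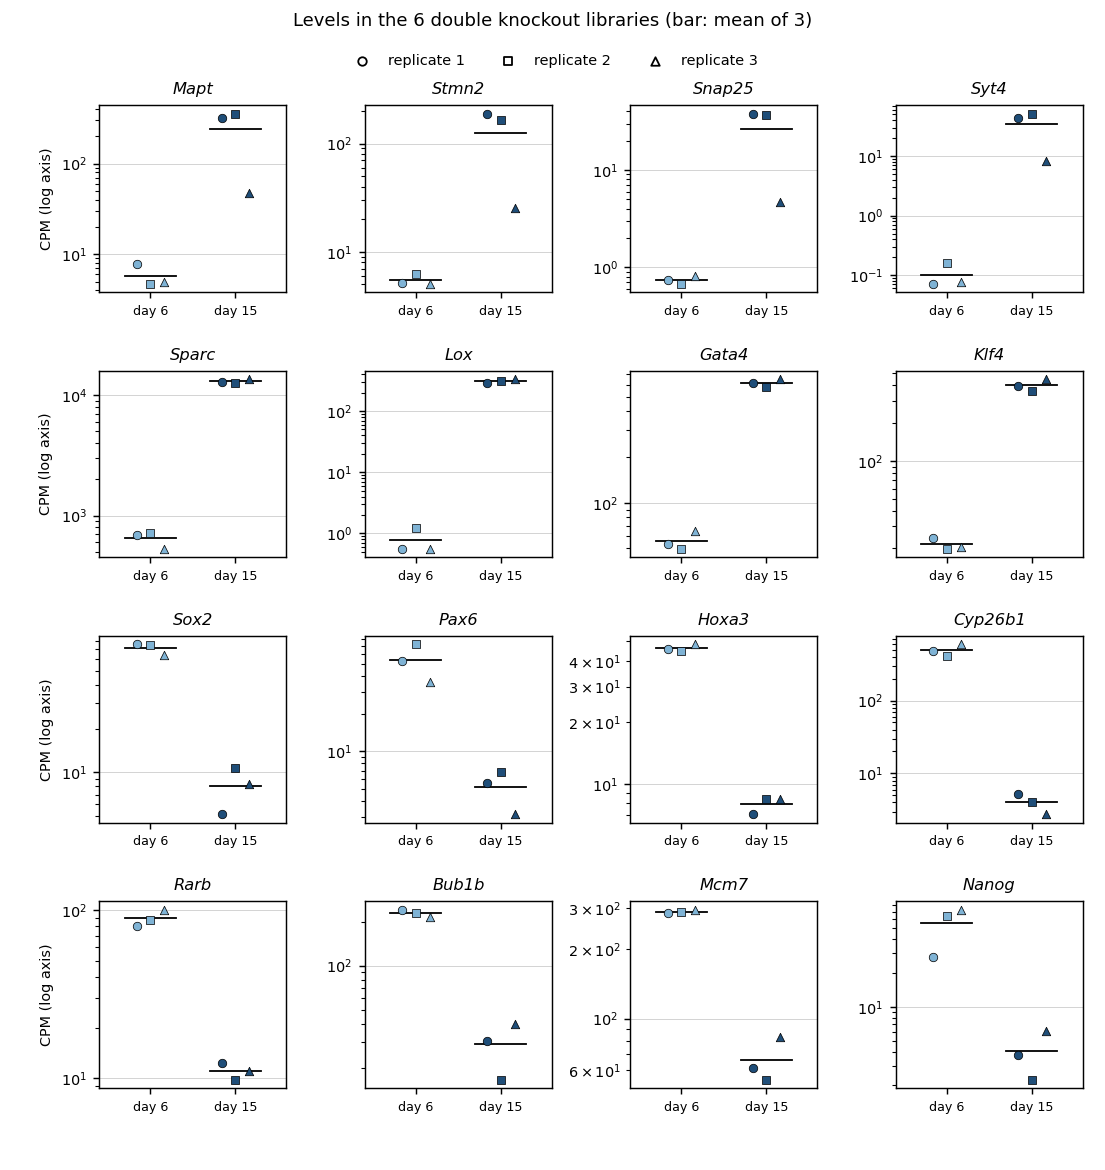
Level in CPM on a log axis of 16 genes in the 3 day 6 and 3 day 15 double knockout libraries. The neuronal genes Mapt, Stmn2, Snap25 and Syt4 have their lowest day 15 value in replicate 3, while Sparc, Lox and Gata4 are close to level across the day 15 libraries.

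Presynaptic genes followed the pan-neuronal ones, with 17 rises and 0 falls among 21 (median 2.69), and 19 rises without day 15 replicate 3 (median 3.17). Snap25, a core protein of vesicle fusion, went from 0.747, 0.68 and 0.818 CPM at day 6 to 37.8, 36.3 and 4.67 CPM at day 15 (log2 fold change 5.12 ± 0.77, adjusted p = 0.00127). Syt4, a synaptotagmin, went from 0.0723, 0.159 and 0.0772 CPM at day 6 to 43.3, 51 and 8.24 CPM at day 15 (log2 fold change 8.37 ± 0.86, adjusted p = 0.000245). Syt1, the calcium sensor of release, went from 1.66, 3.49 and 3.13 CPM at day 6 to 40.4, 43.5 and 9.97 CPM at day 15 (log2 fold change 3.5 ± 0.58, adjusted p = 0.00193). In each of them day 15 replicate 3 was the lowest of its group and above the day 6 libraries. Rims1, Rims2 and Stx1a of the release machinery did not pass the test, with log2 fold changes from -0.04 to 1.13.

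Postsynaptic genes moved less uniformly: 10 rose, 1 fell and 7 did not pass the test, with a median of 0.69. The adhesion genes Lrrtm1 (8.26) and Lrrtm2 (6.3), Nlgn1 (3.65), Nlgn3 (3.4) and the scaffold Dlg2 (4.85) rose. Shank3 fell (-1.96), and Camk2a (-0.48) and Homer1 (-0.35) did not pass the test. Without day 6 replicate 2, Lrrtm1 had 9.57 and Lrrtm2 7.53, Lrrtm1 had 7.55 without day 6 replicate 3, and 2 genes of the list fell without day 6 replicate 1.

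Transmitter genes of both excitatory and inhibitory neurons rose. Of 16 glutamatergic genes 10 rose and 1 fell (median 3.02), and of 20 GABAergic and glycinergic genes 13 rose and 0 fell (median 2.61). Leaving out day 15 replicate 3 gave rises for 14 of 17 glutamatergic and 15 of 20 inhibitory genes. With day 15 replicate 2 left out, 2 glutamatergic genes and 1 inhibitory gene fell. The AMPA receptor gene Gria1 rose from 0.675, 0.816 and 0.494 to 26.4, 29.3 and 4.9 CPM (log2 fold change 4.94 ± 0.7, adjusted p = 0.000939). The vesicular glutamate transporter Slc17a6 rose (4.31) and its relative Slc17a7 fell (-3.03). On the inhibitory side, Slc6a5, the glycine transporter of glycinergic neurons, had 0.145, 0.0227 and 0.0463 CPM at day 6 and 7.12, 18.1 and 1.81 CPM at day 15 (log2 fold change 7.0 ± 1.06, adjusted p = 0.00129). The GABA synthesis genes Gad1 (4.02) and Gad2 (3.09) and the receptor genes Gabra2 (6.31) and Glra2 (5.45) rose. Slc6a5 had 5.99 without day 15 replicate 2 and 7.86 without day 6 replicate 1, and without day 6 replicate 3 Gabra2 had 7.13 and Glra2 6.14.

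Monoamine, cholinergic and peptide neuron genes fell on balance, with 3 rises and 7 falls among 12 (median -1.5). The dopamine transporter Slc6a3 (-5.68), the vesicular monoamine transporter Slc18a2 (-5.63), Th (-2.29) and Ddc (-1.28) of dopamine synthesis, and the factors Phox2a (-1.73) and Mnx1 (-2.63) fell. The acetylcholinesterase gene Ache rose from 0.53, 0.544 and 0.494 to 88.7, 87 and 67.8 CPM (log2 fold change 7.28 ± 0.2, adjusted p = 5.78e-06), with nearly level day 15 libraries. The choline transporter Slc5a7 (6.81) and the peptide gene Penk (3.77) rose too. Slc6a3 had -7.57 and -5.07 when replicates 3 and 2 of day 15 were left out in turn. Slc5a7 had 5.72 in the absence of day 15 replicate 2, and in the absence of day 6 replicate 3 Slc18a2 had -4.98 and Slc5a7 7.54.

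Of 27 voltage-gated channel genes 18 rose and 0 fell (median 2.39), and 23 rose without day 15 replicate 3. The potassium channel Kcnd2 went from 0.506, 0.884 and 0.895 CPM at day 6 to 12.2, 19.3 and 17.3 CPM at day 15 (log2 fold change 4.41 ± 0.34, adjusted p = 7.9e-05). The sodium channel subunits Scn3b (4.53) and Scn2a (3.82) and the calcium channel Cacna1c (1.99) rose, while Scn8a (0.17) and Kcnc2 (0.05) did not pass the test.

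Of 21 transcription factors of neurogenesis 9 rose and 5 fell (median 0.66). The falls included the proneural factors Neurog1 (-4.42), Neurod4 (-2.87) and Neurod1 (-1.96), together with Pou3f2 (-1.83). Neurod4 was low throughout, with a mean of 0.535 CPM over the double knockout libraries. Among the rises, Myt1l, a factor of postmitotic neurons, had 0.916, 0.906 and 0.525 CPM at day 6 and 33.6, 41.5 and 6.12 CPM at day 15 (log2 fold change 5.12 ± 0.73, adjusted p = 0.000983). Scrt1 (5.51), Myt1 (4.6), Ebf2 (4.53) and Scrt2 (3.93) rose as well, and Ebf2 had 3.81 without day 15 replicate 3. Leaving out day 15 replicate 2 gave 8 falls, while leaving out replicates 2 and 3 of day 6 in turn gave 2 and 3.

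Among 26 axon guidance and migration genes 13 rose and 2 fell (median 0.74), and 1 fell without day 6 replicate 1. Epha5 (3.72, or 3.07 without day 15 replicate 2), Sema3c (2.94), Epha3 (2.93), Robo1 (1.68) and Efna5 (1.5) rose. The netrin receptor genes Unc5a (-2.25) and Unc5b (-1.25) fell. Of 12 neuronal RNA-binding protein genes 7 rose and 1 fell (median 1.7). Rbfox1, a splicing regulator of neurons, had 0.0723, 0.181 and 0.108 CPM at day 6 and 16, 21.5 and 2.69 CPM at day 15 (log2 fold change 6.77 ± 0.89, adjusted p = 0.000687), and Celf6 (4.34) and Celf3 (4.33) rose. Only 4 rose and 0 fell without day 6 replicate 2 or replicate 3, and 0 fell without day 15 replicate 1. In the REST corepressor and BAF switch list 7 rose and 4 fell among 17 (median -0.15). Actl6b, the neuronal BAF subunit, had 0.0723, 0.0227 and 0 CPM at day 6 and 7.81, 8.61 and 1.26 CPM at day 15 (log2 fold change 7.62 ± 1.1, adjusted p = 0.00106), and its progenitor counterpart Actl6a had 73, 85.6 and 85.3 CPM at day 6 and 33, 33.5 and 40.8 CPM at day 15 (log2 fold change -1.19 ± 0.14, adjusted p = 0.000406). Actl6b had 8.97 without day 6 replicate 1 and 6.9 without day 6 replicate 3. Rcor2 fell (-1.96) and Rest (-0.24) did not pass the test.

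Mesenchyme and matrix genes rose to high levels in all 3 day 15 libraries. Of 20 genes 18 rose and 0 fell (median 3.86), and 18 rose without day 15 replicate 3 (median 3.50). Their summed level was 1919 to 2373 CPM at day 6 and 26020.0 to 30460.0 CPM at day 15. Sparc, a matrix glycoprotein, went from 692, 719 and 529.6 CPM at day 6 to 12800.0, 12490.0 and 13550.0 CPM at day 15 (log2 fold change 4.32 ± 0.18, adjusted p = 1.36e-05). Col1a2, a chain of type I collagen, went from 103, 87.2 and 67.6 CPM at day 6 to 1516, 1372 and 1313 CPM at day 15 (log2 fold change 4.02 ± 0.19, adjusted p = 1.69e-05). Both were close to level across the day 15 libraries, including replicate 3. Lum, a marker of fibroblasts, was uneven, with 0, 0.272 and 0.787 CPM at day 6 and 1.56, 6.76 and 48.6 CPM at day 15 (log2 fold change 5.66 ± 1.5, adjusted p = 0.0153). Pdgfrb (0.01) and Twist1 (0.13), genes of mesenchyme cells, did not pass the test.

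Smooth muscle and SRF-YAP target genes rose as a list, 10 of 12 with 0 falls (median 2.30). Acta2, smooth muscle actin, went from 16.3, 12.4 and 25.4 CPM at day 6 to 420.0, 916 and 177 CPM at day 15 (log2 fold change 4.8 ± 0.63, adjusted p = 0.000682). Ccn2, a YAP target, went from 36.4, 37.5 and 25.4 CPM at day 6 to 432, 1279 and 634 CPM at day 15 (log2 fold change 4.56 ± 0.43, adjusted p = 0.000178). Replicate 2 was the highest day 15 library for Acta2, and replicate 3 the lowest. In the absence of day 15 replicate 2, Acta2 had 4.06, Actg2 4.62 and Tagln 2.41 in place of 4.8, 5.32 and 3.18. The number of rises was 6 without day 15 replicate 2, day 6 replicate 2 or day 6 replicate 3, and Cnn1 had 8.12, 6.57 and 7.18 CPM at day 6 and 6.15, 15.2 and 3.09 CPM at day 15 and did not pass the test.

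Endoderm and yolk sac genes moved in opposite directions, 7 up and 7 down among 17 (median 0.73). Gata4, a factor of primitive endoderm, went from 53.8, 49.6 and 65.7 CPM at day 6 to 611, 576 and 652 CPM at day 15 (log2 fold change 3.44 ± 0.15, adjusted p = 1.38e-05). Sox17 went from 21.3, 28.1 and 14.4 CPM at day 6 to 310.5, 285 and 339.5 CPM at day 15 (log2 fold change 3.88 ± 0.25, adjusted p = 4.08e-05), and Foxa2 from 12.3, 12.5 and 15.1 CPM at day 6 to 107, 103 and 131 CPM at day 15 (log2 fold change 3.09 ± 0.16, adjusted p = 2.11e-05). The groups lay far apart for these 3 genes and the day 15 libraries were close to one another. Gata6 (2.71), Dab2 (3.18) and the basement membrane gene Lama1 (4.41) also rose. The falls were Apoa1 (-6.91), Apoa2 (-6.39), Apob (-5.56), Afp (-4.74), Amn (-2.25), Cubn (-1.55) and the factor Foxa1 (-5.83). Ttr (0.15) and Hnf4a (0.73) did not pass the test, and Alb, with at most 1 read in a library, was not tested. The summed level of the list was 1100.0 to 1712 CPM at day 6 and 14480.0 to 22620.0 CPM at day 15, and Lama1 alone had 14020.0, 12590.0 and 19340.0 CPM at day 15.

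Endothelial and red cell genes fell, 10 of 13 with 2 rises (median -4.48). Kdr, a VEGF receptor, went from 76.2, 83.9 and 168 CPM at day 6 to 8.35, 7.21 and 9.36 CPM at day 15 (log2 fold change -3.72 ± 0.33, adjusted p = 0.000138), and Pecam1 from 40.5, 62 and 78.2 CPM at day 6 to 2.25, 2.39 and 4.71 CPM at day 15 (log2 fold change -4.27 ± 0.38, adjusted p = 0.000141). Day 6 replicate 3 had the highest level of both, and the groups did not overlap. Embryonic globins Hba-x (-9.24) and Hbb-bh1 (-6.75) and the red cell factor Gata1 (-6.18) fell, although counts of globin genes can be shared among near-identical copies. Sox18 fell by 6.07 on the log2 scale, or by 7.16 without day 15 replicate 3. Flt1 (3.25) and Cdh5, with 17.3, 22.3 and 55.9 CPM at day 6 and 238, 194 and 238 CPM at day 15 (log2 fold change 2.81 ± 0.42, adjusted p = 0.00129), rose. Microglia and macrophage genes were near the limit: 8 of the 13 were not tested, with at most 7 reads in a library. Of the 5 tested, Spi1 (-4.61), Itgam (-3.55) and Laptm5 (-1.98) fell and Csf1r (1.18, adjusted p = 0.0492) rose (median -1.98). The rise of Csf1r lost its call without day 15 replicate 1, day 6 replicate 1 or day 6 replicate 3, giving 0 rises. Spi1 had -5.34 and Itgam -5.59 with day 15 replicate 3 left out, and Itgam had -2.86 without day 15 replicate 2.

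Heart and skeletal muscle genes had 3 rises and 5 falls among 12 (median -0.54), with 3 falls without day 15 replicate 2 or day 6 replicate 3. Myh6 (-3.54), the atrial myosin, and Myl7 (-4.12) fell, and Nppb (3.73) and Ryr2 (2.67) rose. Neural crest and peripheral neuron genes had 5 rises and 3 falls among 14 (median 0.66). Runx1 (4.06) and Ntrk3 (4.24) of sensory neurons and Foxd3 (3.04) of neural crest rose, and Erbb3 (-1.78) and Runx3 (-0.99) fell. Ntrk3 had 3.58 without day 15 replicate 3, and Foxd3 had 2.33 with day 15 replicate 2 left out. Epithelial genes fell, 9 of 13 with 2 rises (median -1.89). The epithelial cadherin Cdh1 went from 243, 191 and 211 CPM at day 6 to 76.3, 43.1 and 55.3 CPM at day 15 (log2 fold change -1.89 ± 0.22, adjusted p = 0.000394), and Cldn7 (-2.42), Grhl2 (-2.27) and Epcam (-1.41) fell. The rises of Krt14 and Krt8 depended on single libraries: 0 of the list rose without replicate 1 of either day, and 1 without day 15 replicate 2 or day 6 replicate 2 or 3. Trophoblast genes had 7 falls and 0 rises among 13 (median -1.57), with 1 rise without day 15 replicate 3, and Cdx2 (-2.7), Tfap2c (-2.36) and Eomes (-1.97) fell. The part that these other cell types play in the changes of single genes was not tested.

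Pluripotency genes fell further from their day 6 levels. Of 20, 13 fell and 2 rose (median -1.51), and without day 15 replicate 3, 16 fell. Pou5f1 (Oct4) went from 61, 58.3 and 49.4 CPM at day 6 to 9.79, 4.29 and 21.1 CPM at day 15 (log2 fold change -2.26 ± 0.5, adjusted p = 0.00705), and Nanog from 27.8, 64.3 and 72.6 CPM at day 6 to 3.76, 2.25 and 6.08 CPM at day 15 (log2 fold change -3.77 ± 0.48, adjusted p = 0.000613). Replicate 3 kept the highest level of both among the day 15 libraries. Klf2 (-3.05), Tfcp2l1 (-2.41) and Esrrb (-2.31) fell. The rises were Klf4, with 24.3, 19.8 and 20.6 CPM at day 6 and 395, 362 and 449.6 CPM at day 15 (log2 fold change 4.22 ± 0.15, adjusted p = 1.11e-05), and Klf5 (2.61), which are also expressed in differentiated epithelia and mesenchyme. In the Lin28 and Igf2bp list 6 of 8 fell and 0 rose (median -1.58). Lin28a, which blocks let-7 maturation, went from 275, 239 and 208 CPM at day 6 to 18.7, 7.56 and 36.1 CPM at day 15 (log2 fold change -3.54 ± 0.51, adjusted p = 0.00108), or -4.20 without day 15 replicate 3. Lin28b (-3.21) and Trim71 (-2.45) fell too, and Hmga1 (-2.35) fell, with the reservation that it has near-identical copies.

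Genes of the cell cycle fell. All 19 mitosis genes fell (median -1.88), and 22 of 23 DNA replication genes (median -1.51), against 25.6% of all genes. Bub1b, of the spindle checkpoint, went from 241, 228 and 214 CPM at day 6 to 30.6, 16.6 and 39.6 CPM at day 15 (log2 fold change -2.98 ± 0.3, adjusted p = 0.000226). Cdc20, the activator of the anaphase-promoting complex, went from 170.4, 153 and 137 CPM at day 6 to 46, 26.3 and 54.6 CPM at day 15 (log2 fold change -1.86 ± 0.26, adjusted p = 0.000893), and the cyclin Ccnb2 from 101, 102 and 94.3 CPM at day 6 to 19.5, 8.84 and 23 CPM at day 15 (log2 fold change -2.54 ± 0.33, adjusted p = 0.000639). Mcm7, a subunit of the replicative helicase, went from 286, 288 and 295 CPM at day 6 to 61.2, 54.5 and 83.6 CPM at day 15 (log2 fold change -2.12 ± 0.17, adjusted p = 9.2e-05). In all 4 genes replicate 3 was the highest of the day 15 libraries and below every day 6 library. Ccne2 (-0.46) was the only replication gene that did not pass the test, and 21 replication genes fell without day 15 replicate 3. Of 7 Cdk inhibitor genes 4 rose and 0 fell (median 1.20): Cdkn1a, with 69.5, 38.1 and 38 CPM at day 6 and 439, 452 and 302 CPM at day 15 (log2 fold change 3.04 ± 0.29, adjusted p = 0.000188), Cdkn2b (2.58), Cdkn2a (2.23) and Cdkn1c (1.2). Of 17 p53 target genes 10 rose and 1 fell (median 1.01). Fas (2.95), Btg2 (2.2) and Ccng1 (1.48) rose, and the fall of Sesn1 lost its call without day 15 replicate 1 or 2 or day 6 replicate 2 or 3.

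The promoters of Cdc20 and Ccnb2 are shown because both hold the letters of mitotic promoters, the CCAAT box bound by NF-Y and the TTTGAA of the cell cycle homology region, in capitals. They are RefSeq's on GRCm38.p6, 250 bases before the start, with 10 bases after it for Ccnb2.
Cdc20, chr4:118437344-118437593, reverse strand: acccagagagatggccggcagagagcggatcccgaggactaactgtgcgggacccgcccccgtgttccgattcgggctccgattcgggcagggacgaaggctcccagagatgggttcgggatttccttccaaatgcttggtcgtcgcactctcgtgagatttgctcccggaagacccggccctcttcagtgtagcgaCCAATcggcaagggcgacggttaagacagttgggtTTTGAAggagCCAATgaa
Ccnb2, chr9:70421545-70421804, reverse strand: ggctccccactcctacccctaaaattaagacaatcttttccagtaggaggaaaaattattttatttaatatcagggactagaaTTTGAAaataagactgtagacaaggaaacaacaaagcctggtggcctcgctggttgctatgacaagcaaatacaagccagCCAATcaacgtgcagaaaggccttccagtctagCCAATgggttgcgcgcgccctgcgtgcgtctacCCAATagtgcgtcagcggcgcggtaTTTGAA
Both motifs were searched on both strands in windows of 250 bases before to 50 after the start. CCAAT was in 37.4% of 32851 windows and in 41.1% of 27025 genes with a window, and by gene in 13 of 15 mitosis genes with a window (86.7%), 14 of 19 replication genes (73.7%), 8 of 14 pan-neuronal genes (57.1%) and 3 of 14 presynaptic genes (21.4%). TTTGAA was in 17.9% of windows and 20.2% of genes, and in the same lists in 10 of 15 (66.7%), 3 of 19 (15.8%), 1 of 14 (7.14%) and 4 of 14 (28.6%). These shares are a description of the sequences of lists chosen with the results known.

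Genes of hypoxia and glycolysis fell, 14 of 17 with 1 rise (median -1.84). Slc2a3, a glucose transporter, went from 922, 1030.0 and 668 CPM at day 6 to 110.2, 68.4 and 76.3 CPM at day 15 (log2 fold change -3.36 ± 0.25, adjusted p = 6.91e-05), and Slc2a1 (-2.74), Car9 (-3.21) and Pdk1 (-2.4) fell as well. Eno1 (-2.19), Ldha (-1.84) and Gapdh (-1.6) fell, but have near-identical copies. Among 18 cholesterol synthesis genes 5 rose and 1 fell (median 0.21). Insig1 (2.26), a target of the transcription factor SREBP2, rose. With day 15 replicate 2 left out, 8 rose and 0 fell, and the number of falls was 2 without day 6 replicate 1 and 0 without day 6 replicate 2 or 3. No mitochondrial genome gene passed edgeR's test (0 of 12, median 0.26), with 2 at an unadjusted p under 0.05 and 1 rise by DESeq2, and 1 of 13 rose without day 6 replicate 1. mt-Co1 had -0.13 and mt-Cytb 0.95.

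Among chromatin genes, 2 of 14 KAT6 complex and MYST genes rose and 0 fell by edgeR (median -0.05), with 2 at an unadjusted p under 0.05 and 2 rises by DESeq2. The rises were Jade1 (0.88) and Jade2 (0.77), scaffolds of the related KAT7 complex, and 1 rose without day 6 replicate 2 or replicate 3. Without day 6 replicate 1, 1 gene of this list fell. Brpf1 (0.02) and Brd1 (0.16), the scaffolds of KAT6 complexes, did not pass the test. Polycomb genes had 9 rises and 9 falls among 26 (median 0.18). The falls included the PRC2 genes Ezh2 (-1.61), Suz12 (-1.18), Eed (-0.63), Jarid2 (-2.03), Mtf2 (-2.12) and Phf19 (-4.35). Phf19 went from 30.1, 35.9 and 21.8 CPM at day 6 to 0.804, 1.55 and 1.91 CPM at day 15 (log2 fold change -4.35 ± 0.37, adjusted p = 0.000113). The rises included Ezh1 (0.37), Epop (1.63), Phf1 (1.34), Bmi1 (1.08) and the chromobox genes Cbx6 (0.97) and Cbx8 (1.46), while Cbx2 fell (-1.97). Imprinted genes had 6 rises and 3 falls among 17 (median 0.44), with Meg3 (1.32), Ndn (0.88) and Sgce (0.51) up and Phlda2 (-3.79) and Peg10 (-1.19) down. Without day 15 replicate 3, 9 rose and 2 fell, and without day 6 replicate 3, 3 rose. Interferon and antigen presentation genes had 8 falls and 2 rises among 16 (median -0.78), with 1 rise without day 6 replicate 2. Bst2 (-1.5), Oasl2 (-1.69) and Psmb8 (-1.38) fell, while B2m went from 36.9, 46.3 and 45.6 CPM at day 6 to 137, 131 and 146 CPM at day 15 (log2 fold change 1.68 ± 0.13, adjusted p = 7.97e-05). H2-K1 fell (-1.23), with the reservation that related class I genes share its sequence.

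The same step in E14 changed 10663 of 19851 genes (53.7%), 28.3% upward and 25.4% downward. The double knockout and E14 steps share no libraries, and over 19242 genes tested in both their log2 fold changes correlated at Pearson's r of 0.87, a description across genes and not over independent replicates. Of the 9912 genes called in the double knockout and tested in E14, 95.9% had the same sign in E14, against 82.95% of all genes. Called in both with the same direction were 7528 genes, 75.95% of the double knockout's calls and 73.16% of E14's, and 40 were called in opposite directions.

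**Figure D4:**
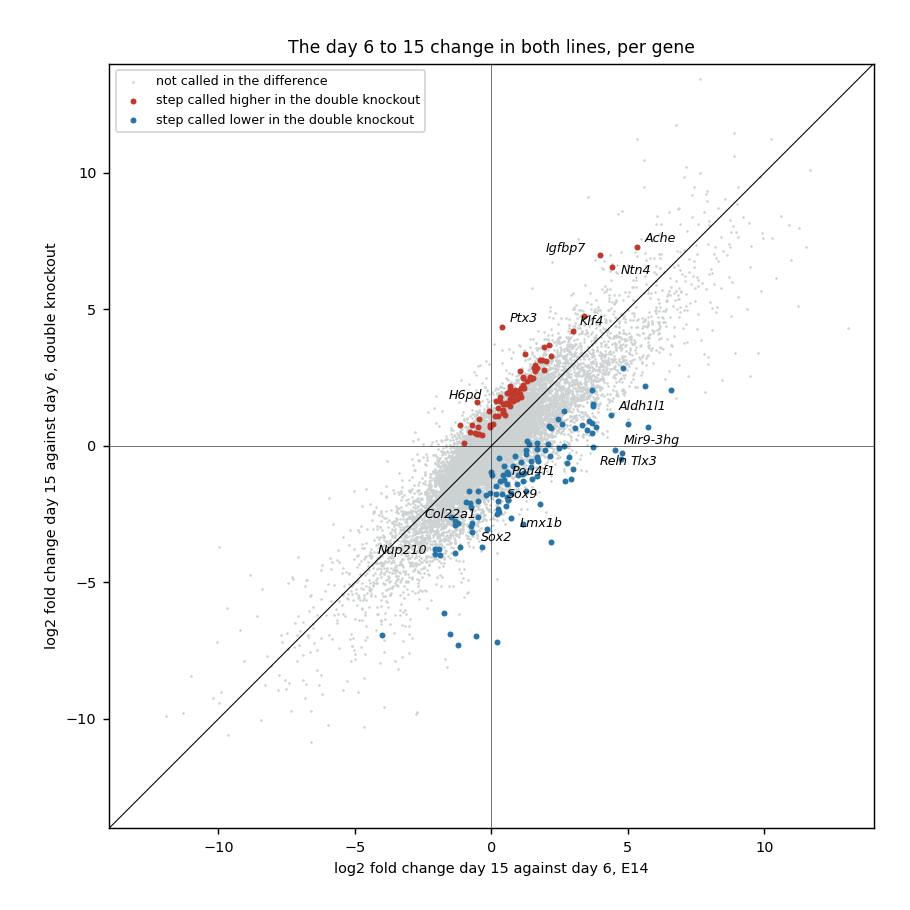
Log2 fold change from day 6 to day 15 in the double knockout (y axis) against the same in E14 (x axis), 1 point per gene tested in both. Most points lie along the diagonal, and the genes whose steps differ by the interaction test are marked.

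The difference between the steps was tested as an interaction, (double knockout day 15 minus day 6) minus (E14 day 15 minus day 6). Of 21341 genes, 195 differed (0.914%), 76 with a higher step in the double knockout (0.356%) and 119 with a lower step (0.558%), and 4054 genes (19%) had an unadjusted p under 0.05. DESeq2 called 1475 (660 higher, 815 lower), and a fit with all 24 libraries of days 6 and 15 called 51 (12 higher, 39 lower). The number of calls depended on single libraries: it was 7 without E14 day 6 replicate 1, 12 without E14 day 15 replicate 1, 13 without double knockout day 6 replicate 3, 17 without double knockout day 6 replicate 2 and 21 without E14 day 15 replicate 3. It was 30 without double knockout day 15 replicate 1, 50 and 68 without E14 day 6 replicates 2 and 3, 428 without double knockout day 15 replicate 2 and 386 without E14 day 15 replicate 2. Without double knockout day 15 replicate 3 it was 179. The calls held in every such fit for 6 genes: Aldh1l1, Col22a1, H6pd, Lmx1b, Nup210 and Pou4f1.

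Among these, Aldh1l1, an astrocyte enzyme of folate metabolism, had 8.46, 6.08 and 5.83 CPM at day 6 and 18.1, 16.3 and 10.4 CPM at day 15 in the double knockout and 3.63, 6.17 and 3.49 CPM at day 6 and 107, 73.4 and 99.97 CPM at day 15 in E14 (difference -3.26 ± 0.39, adjusted p = 0.0136). Lmx1b, a factor of hindbrain and dorsal neurons, had 16, 16.2 and 13.9 CPM at day 6 and 2.41, 2.75 and 2.27 CPM at day 15 in the double knockout and 7.88, 12.2 and 11.6 CPM at day 6 and 22.5, 14.4 and 15.3 CPM at day 15 in E14 (difference -3.35 ± 0.32, adjusted p = 0.00513). Pou4f1 (Brn3a), a factor of sensory and other neurons, had 5.77, 5.71 and 4.35 CPM at day 6 and 4.27, 2.99 and 1.54 CPM at day 15 in the double knockout and 4.63, 5.65 and 5.48 CPM at day 6 and 52.9, 32.9 and 39.7 CPM at day 15 in E14 (difference -3.84 ± 0.44, adjusted p = 0.0136). In E14 all 3 genes rose. In the double knockout Lmx1b fell (-2.65), Pou4f1 did not pass the test (-0.86) and Aldh1l1 rose less (1.12). H6pd, an enzyme of the endoplasmic reticulum, had 38.2, 30.6 and 29.1 CPM at day 6 and 101, 105 and 103 CPM at day 15 in the double knockout and 28.4, 32.2 and 32.9 CPM at day 6 and 33.3, 38.5 and 32.1 CPM at day 15 in E14 (difference 1.5 ± 0.18, adjusted p = 0.0136). It rose in the double knockout, and its step in E14 did not pass the test. Col22a1 (difference -2.67 ± 0.34, adjusted p = 0.0136), a collagen, and Nup210 (difference -1.85 ± 0.23, adjusted p = 0.0136), a nuclear pore protein, were lower in their step in the double knockout.

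The radial glia and astrocyte list held the most calls: 5 of 19 genes had a lower step in the double knockout (Aqp4, Aldh1l1, Sox9, Hopx and Aldoc), against 0.558% of all genes, with 11 lower at an unadjusted p under 0.05 and 11 by DESeq2. The median difference was -2.13, against 0.01 over all genes. At day 15 the list's mean log2 CPM was 3.2, 4.0 and 2.9 in the double knockout and 6.0, 5.4 and 5.8 in E14. It was 3.6, 4.5 and 4.7 in the KAT6A knockout and 4.6, 2.8 and 3.6 in the KAT6B knockout. A level below E14 was therefore not particular to the double knockout. Leaving out 1 library gave 1 to 9 lower calls in this list, with 1 when replicate 1 or 3 of E14 day 15, replicate 1 of E14 day 6, or replicate 2 or 3 of double knockout day 6 was missing. Of the 12 fits that each left out 1 library, Aldh1l1 kept its call in 12, Sox9 in 7, Aqp4 in 5, and Hopx and Aldoc in 3 each. Sox9 had 56.5, 53.6 and 56.7 CPM at day 6 and 12.3, 14 and 7.44 CPM at day 15 in the double knockout and 46.7, 36.2 and 70.1 CPM at day 6 and 71.3, 47.3 and 62.5 CPM at day 15 in E14 (difference -2.54 ± 0.38, adjusted p = 0.0221). Among 18 neural progenitor genes Sox2, Prom1 and Notch1 had a lower step (median -1.23). At day 15 that list's mean log2 CPM was 2.7, 3.1 and 2.6 in the double knockout and 5.0, 5.0 and 5.0 in E14. The KAT6A knockout had 3.8, 4.4 and 4.0 and the KAT6B knockout 4.0, 2.6 and 3.1, also below E14. Sox2 had 102, 137 and 98.2 CPM at day 6 and 66.8, 74.3 and 63 CPM at day 15 in E14 (difference -2.41 ± 0.31, adjusted p = 0.0136). In the double knockout it had 76.9, 76 and 65.8 CPM at day 6 and 5.23, 10.9 and 8.63 CPM at day 15. All E14 libraries were therefore above all double knockout libraries at day 15, and already at day 6. Notch1 rose in E14 and fell in the double knockout (difference -1.49 ± 0.3, adjusted p = 0.0461). Sox2 kept its call in 11 of these 12 fits, Prom1 in 5 and Notch1 in 3. The interferon list had 2 lower of 16, among them Usp18 (median -1.39). At day 6 its mean log2 CPM was 4.3, 3.8 and 4.4 in the double knockout and 2.8, 3.2 and 2.7 in E14. At day 15 it was 3.4, 3.6 and 3.5 against 3.3, 3.6 and 3.7. The 2 lines thus differed in this list at day 6 and overlapped at day 15. Usp18, which restrains interferon signalling, had 15.5, 8.19 and 18.4 CPM at day 6 and 3.47, 5.74 and 3.72 CPM at day 15 in the double knockout and 6.17, 5.03 and 7.24 CPM at day 6 and 9.73, 8.18 and 12.1 CPM at day 15 in E14 (difference -2.4 ± 0.45, adjusted p = 0.0377), a call kept in 4 of the 12 fits.

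Neuronal lists had negative medians in the difference but few calls. Over all genes, 19% had an unadjusted p under 0.05 in either direction. Pan-neuronal genes had a median of -1.0, with 22 of 23 negative, 0 called by edgeR, 3 lower at an unadjusted p under 0.05 and 2 by DESeq2. Presynaptic genes had -0.96, all 21 negative, 0 called, 4 lower at an unadjusted p under 0.05 and 0 by DESeq2. Channel genes had -1.21, 0 called, 13 lower at an unadjusted p under 0.05 and 4 by DESeq2. Replicate 3 had the lowest mean log2 CPM of the day 15 double knockout libraries in these lists, and the tests of these differences did not pass the threshold. Calls, genes lower at an unadjusted p under 0.05 and DESeq2 calls, all lower, follow for other neuronal lists. Glutamatergic genes had 0, 9 and 5 of 17 (median -1.84), and GABAergic and glycinergic genes 1, 8 and 3 of 22 (-1.46). Postsynaptic genes had 1, 8 and 4 of 18 (-1.37), and neuronal transcription factors 2, 9 and 5 of 25 (-1.65). Axon guidance genes had 2, 11 and 4 of 26 (-0.95), with 3 higher at an unadjusted p under 0.05. Mesenchyme genes had a median difference of 0.97, with 0 called, 5 higher at an unadjusted p under 0.05 and 3 by DESeq2. Their summed level at day 15 was 26020.0 to 30460.0 CPM in the double knockout and 8747 to 12460.0 CPM in E14. It was 14960 to 25460 CPM in the KAT6A knockout and 21580 to 30510 CPM in the KAT6B knockout, so a high level was not particular to the double knockout. Mitosis genes had -0.35 and retinoic acid genes 0.11, with 0 called in both. At an unadjusted p under 0.05 there were 0 mitosis genes and 2 retinoic acid genes in each direction, and DESeq2 called 0 mitosis genes and 1 retinoic acid gene in each direction.

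**Figure D5:**
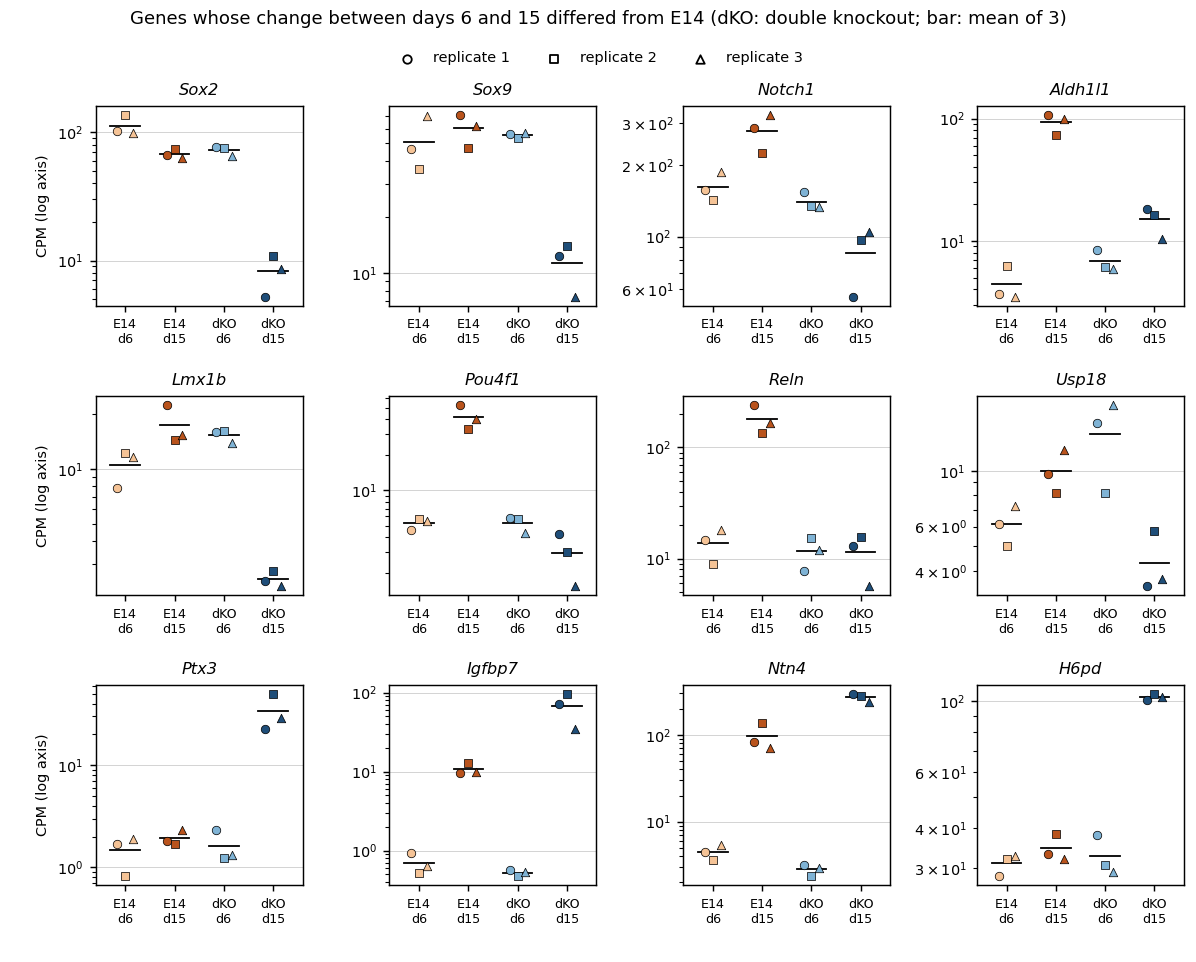
Level in CPM on a log axis of 12 genes whose step differed between the double knockout and E14, in the 3 libraries each of E14 day 6, E14 day 15, double knockout day 6 and double knockout day 15. Sox2, Aldh1l1, Lmx1b and Pou4f1 are lower in the double knockout than in E14 at day 15, and Ptx3, Igfbp7, Ntn4 and H6pd are higher.

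The largest differences by the naming rule were 6 genes with a lower and 6 with a higher step in the double knockout. Mir9-3hg, the host transcript of a neural microRNA (difference -4.63 ± 0.7, adjusted p = 0.0223), and Reln, the extracellular signal of neuronal migration (difference -3.74 ± 0.55, adjusted p = 0.0223), rose in E14 and did not pass the test in the double knockout. Reln had 7.75, 15.2 and 12 CPM at day 6 and 12.9, 15.5 and 5.63 CPM at day 15 in the double knockout and 14.7, 9.01 and 18.1 CPM at day 6 and 243, 134 and 167 CPM at day 15 in E14. Cntn2, an axonal adhesion gene (-3.36), and Tmem163 (-3.4) were lower too. Above were Ptx3, a pentraxin (difference 3.97 ± 0.54, adjusted p = 0.0138), and the secreted Igfbp7 (3.02) and Ntn4 (2.16), with Car8 (2.16), Kcnk5 (2.13) and Ache (1.95). Ptx3 had 2.32, 1.23 and 1.34 CPM at day 6 and 22.8, 49.3 and 28.9 CPM at day 15 in the double knockout and 1.71, 0.826 and 1.89 CPM at day 6 and 1.81, 1.7 and 2.34 CPM at day 15 in E14, where its step did not pass the test. Among these genes the call was kept in 10 of the 12 fits for Ache, 8 for Ptx3, 6 for Ntn4, 5 for Mir9-3hg, Reln and Kcnk5, 4 for Cntn2, Tmem163 and Igfbp7 and 2 for Car8.

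Against the KAT6A knockout, 0 of 20948 genes differed in their step by edgeR, with 948 (4.53%) at an unadjusted p under 0.05 and 5 lower by DESeq2. The smallest p-values belonged to Col22a1 (difference -2.22 ± 0.38, adjusted p = 0.988), Npnt (-1.46 ± 0.26, adjusted p = 0.988) and Crb2 (-1.61 ± 0.31, adjusted p = 0.988). Npnt, a matrix ligand of integrins, had 54.3, 42 and 57.3 CPM at day 6 and 8.21, 5.52 and 6.71 CPM at day 15 in the double knockout and 41, 45.4 and 52.8 CPM at day 6 and 15.9, 15.6 and 19.4 CPM at day 15 in the KAT6A knockout, and a difference that misses the threshold does not show that the steps were alike.

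Against the KAT6B knockout, 1 of 20925 genes differed (0.00478%), with 1056 (5.05%) at an unadjusted p under 0.05 and 88 by DESeq2, 13 higher and 75 lower. The gene was Msln, the mesothelial surface protein mesothelin, at low levels: it had 0.747, 0.709 and 0.841 CPM at day 6 and 0.709, 0.904 and 0.8 CPM at day 15 in the double knockout and 0.12, 0.109 and 0.043 CPM at day 6 and 2.5, 2.27 and 2.76 CPM at day 15 in the KAT6B knockout (difference -4.7 ± 0.52, adjusted p = 0.0352). Msln lies under the level used for naming genes and was picked after its values were seen. The call was lost without a filter on low counts and with the replicate number as a block (0 calls), and leaving out 1 library gave 0 to 3 calls, 3 without KAT6B knockout day 15 replicate 1. The KAT6B knockout libraries of day 15 differed widely, with summed pan-neuronal levels from 785.9 to 4811 CPM. Their biological coefficient of variation, edgeR's measure of spread between replicates, was 50.4%, against 35.2% in the double knockout at day 15. Few calls against this genotype therefore do not show that the steps were alike. Among better-expressed genes, the smallest p-values belonged to Aldh1a1 (-3.06 ± 0.47, adjusted p = 0.201), Nrg1 (-1.56 ± 0.24, adjusted p = 0.201) and Upk3b (-4.61 ± 0.79, adjusted p = 0.306). Upk3b, another mesothelial gene, had 11.8, 9.9 and 6.56 CPM at day 6 and 0.804, 2.59 and 5.96 CPM at day 15 in the double knockout and 3.82, 6.63 and 4.49 CPM at day 6 and 51, 37.7 and 32.1 CPM at day 15 in the KAT6B knockout.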

How the data were processed

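Per the labels' protocols, ribosomal RNA was removed from 1 µg of total RNA per sample and directional libraries were read as 150 bp pairs. The authors deposited raw gene counts, from HISAT2 alignments to GRCm39 per the submitters' processing notes. Not given in the sources used here are the version of HISAT2, the program that counted, its strand setting and the annotation, so overlapping and antisense genes cannot be told apart. Of 36983 gene entries, 48 repeating an identifier were left out. Counts of the libraries compared were filtered with filterByExpr (10 counts, 15 in total), scaled with TMM and tested with edgeR 4.0.16 (limma 3.58.1, R 4.3.3): 3 against 3 for each step, 12 libraries for each interaction. Calls used a Benjamini-Hochberg adjusted p under 0.05. Standard errors were derived from the log2 fold change and its F statistic. A fold against a group without reads uses a floor of 3 counts over the group, which covers counting error only. The scripts were tested on simulated data.

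Alternatives were RLE scaling, other filters, DESeq2 1.42.0, larger fits, a replicate block and leaving out each library. Named genes were the 12 largest changes per direction at 5 CPM or more and up to 5 called members per list by adjusted p. The 6 largest called interaction differences per direction at 5 CPM or more were also named. Where no gene at that level was called in an interaction, the 3 smallest p-values at 5 CPM or more were taken. Clone names were left out. Other members, markers and list-level patterns named in the text were chosen after their values were seen. The members, lists and promoter letters were chosen with earlier results of these data known, and the letters of the direct repeat after seeing the genes that fell. Promoters are RefSeq's on GRCm38.p6, another build than that of the counts, and their coordinates were not mixed with those of genes. P-values measure the spread between these samples, whose replicates come from separate differentiations per the labels. Some genes are not reported here.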

Additional observations from a re-analysis of the deposited data

Results flagged for a closer look

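The step from day 6 to day 15 differed between the double knockout and E14 by the interaction test, at an edgeR adjusted p under 0.05, for the genes below, which were list members, among the largest differences or called in every fit without 1 library. Each value in parentheses is the log2 step of the double knockout minus that of E14. Genes of radial glia, astrocytes and neural progenitors with a lower step were Aqp4 (-5.7), Aldh1l1 (-3.26), Sox9 (-2.54), Hopx (-2.41), Aldoc (-2.2), Sox2 (-2.41), Prom1 (-2.08) and Notch1 (-1.49). Genes of neurons and neural crest with a lower step were Npy (-5.16), Tlx3 (-5.02), Pou4f1 (-3.84), Reln (-3.74), Ebf1 (-2.61), Gphn (-1.52) and Plxna2 (-1.27). In the double knockout Npy had at most 0.0786 CPM and Tlx3 at most 0.796 CPM. Of the 12 fits that each left out 1 library, the call was kept in 5 for Ebf1 and Gphn. It was kept in 4 for Tlx3, 3 for Npy and 2 for Plxna2. Named by size, with a lower step, were Mir9-3hg (-4.63), Tmem163 (-3.4) and Cntn2 (-3.36). Held in all fits that left out 1 library, with a lower step, were also Lmx1b (-3.35), Col22a1 (-2.67) and Nup210 (-1.85). Other lower steps were Hoxa6 (-3.13), Hoxb7 (-2.55) and Usp18 (-2.4), with the call kept in 5 of the 12 fits for Hoxa6 and 4 for Hoxb7 and Usp18. A higher step was found for Klf4 (1.27), Epop (1.33), H6pd (1.5), Ache (1.95), Kcnk5 (2.13), Car8 (2.16), Ntn4 (2.16), Igfbp7 (3.02) and Ptx3 (3.97). Of these, Klf4 kept its call in 6 of the 12 fits and Epop in 3. Against the KAT6B knockout the step of Msln differed by -4.70 on the log2 scale. Groups of 3 libraries were not tested for single outlying samples.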

How the results depend on the processing

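The step of the double knockout gave 8218 to 11626 calls over all alternatives against 10365 (8218 to 10935 without 1 library), and 0 called genes turned sign. Step calls were lost under some alternative for Csf1r, Lhx2, Mag, Tnni3, Itgam, Srrm3 and Jade2 when 1 library was left out, and for Jade1 and Ndn with all 24 libraries of days 6 and 15 in 1 fit. Uncalled changes near 0 turned sign: Kat6a had -0.03 with at least 1 CPM required, -0.01 with the replicate block and -0.06 to 0.15 without 1 library, Kat6b -0.19 to 0.06 and mt-Co1 -0.42 to 0.07 without 1 library. The difference from E14 gave 195 calls, 1475 by DESeq2 (660 higher, 815 lower), 51 with 24 libraries (12 higher, 39 lower) and 7 to 428 without 1 library (1 to 204 higher, 6 to 267 lower). The difference from the KAT6A knockout gave 5 calls by DESeq2, all lower. The difference from the KAT6B knockout gave 88 by DESeq2 (13 higher, 75 lower), 0 with no filter on low counts and 0 to 3 without 1 library, all lower. The cause of these shifts was not tested. Whether replicate numbers pair the double knockout samples was not clear: same-numbered deviations correlated at 0.134, -0.018 and 0.142. Day 6 replicates 1 and 3 correlated best with their own number, and day 6 replicate 2 did not. In E14 (0.171, 0.256 and 0.116) and the KAT6B knockout (0.314, 0.275 and 0.114) all 3 pairs were above 0.1. There each day 6 replicate correlated best with its own number, while the main fits had no replicate term. With the replicate block the step had 9822 calls, the difference from E14 198 and that from the KAT6B knockout 0. The block also ended the calls of Csf1r (1.13, adjusted p = 0.0767) and, against E14, Cntn2 (-3.46, adjusted p = 0.0524), and those are values of edgeR's test. With 3 libraries per group, genes near the count minimum, such as the untested microglia genes, could not be called at this depth.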

Other observations

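Genes called in both steps with opposite signs, 40 in all, were listed after their values were seen. Of these, genes that rose in the double knockout and fell in E14 included Yap1, the transcriptional coactivator of the Hippo pathway (0.40 against -0.34), Kank2, a focal adhesion protein (0.69 against -0.49), and Ece1, which activates endothelins (0.43 against -0.51). The test of the difference had an adjusted p of 0.0485 for Yap1, 0.0391 for Kank2 and 0.0467 for Ece1 by edgeR. Of the 12 fits that each left out 1 library, the call was kept in 2 for Yap1, 3 for Kank2 and 0 for Ece1.

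Interferon-stimulated genes outside the pathway list above were among those that fell in the double knockout and rose in E14: Mx2 (-1.30 against 1.14), Gbp3 (-1.0 against 1.18) and Rtp4 (-1.30 against 0.86). The edgeR adjusted p of the difference was 0.0312 for Mx2, 0.0365 for Gbp3 and 0.0549 for Rtp4, which missed the threshold, and the calls of Mx2 and Gbp3 were kept in 5 of the 12 fits each. The interferon list as a whole was higher in the double knockout than in E14 at day 6 and overlapped E14 at day 15. The proneural gene Neurod4 (-2.87 against 2.15) and the nuclear receptor gene Rorb (-2.01 against 1.25) had the same pair of signs, and their differences missed the threshold, with edgeR adjusted p of 0.0714 and 0.0583. Neurod4 had a mean of 0.535 CPM over the double knockout libraries and 5.29 CPM over those of E14.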
